A study of Mus musculus with 132 samples.

Results

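The genes described here are the 76 entries of the deposited count table that start on chromosome 16 in a window of several Mb around Runx1 (mm9, from Gm10789 at 90142481 to Dscam, which starts at 97392342 on the minus strand), leaving out Runx1 itself, Erg and Ets2. The whole table held 25146 entries, and the window with those 3 genes held 79. The study asked how chromatin around Runx1 folds during blood development in culture, and whether CTCF sites next to the Runx1 promoters matter. Poly(A)-minus RNA-seq, which the study used to capture nascent transcripts, was available for 23 libraries. All of them derive from E14-TG2a mouse embryonic stem cells (mESCs) or clones of that line.

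Wild-type cells were sampled undifferentiated (day 0, 2 libraries labelled as technical replicates), as Flk1+ mesoderm (day 4, 3 clones) and as CD41+ hematopoietic progenitor cells (HPCs, day 7, 4 libraries of the same 3 clones). P1-CTCF-KO cells lack the CTCF site upstream of the distal Runx1 promoter P1. They gave 3 mesoderm and 3 HPC libraries. P2-CTCF-KO cells lack the CTCF site upstream of the proximal promoter P2. They gave 3 mesoderm and 5 HPC libraries. Both deletions were made with CRISPR-Cas9, and every clone grew from a single colony, so a genotype is represented by a few clones. Clones named E7.1 and E7.2 share their first part of the name, and libraries marked "-2" are second HPC libraries of one clone. Wild-type mesoderm and HPCs came from clones with both sites present, named B9.3, C6.1 or C8.1. The p-values below measure the spread between these libraries, part of which may be technical. In bulk libraries, fewer cells of a type and less RNA per cell cannot be told apart.

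Chromosomes are folded into topologically associating domains (TADs), within which DNA contacts itself more often than DNA outside. The ends of many TADs carry sites for CTCF, a zinc-finger protein that stops the extrusion of chromatin loops by cohesin. Removing such a site can let enhancers reach genes beyond it, so neighbours of a deleted site are the genes to look at first. Runx1, the transcription factor that drives the emergence of blood from endothelium, sits in its own TAD with a long gene desert. The surrounding genes lie in the part of mouse chromosome 16 that corresponds to human chromosome 21, where trisomy causes Down syndrome.

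The 4 CTCF peaks that bear on this question are shown here, since they lie at the deleted sites and nearest to the ends of the TAD. The peaks were called on merged CTCF ChIP-seq reads of 416B cells, a mouse hematopoietic progenitor line. Coordinates are mm9, sequences are read from the plus strand, and capitals mark the match to the letters CNNNAGNGGGC, chosen after these 4 windows had been seen.
P1-CTCF, chr16:92828364-92828443: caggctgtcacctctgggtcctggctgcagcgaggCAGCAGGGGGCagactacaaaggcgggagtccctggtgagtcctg
P2-CTCF, chr16:92699026-92699105: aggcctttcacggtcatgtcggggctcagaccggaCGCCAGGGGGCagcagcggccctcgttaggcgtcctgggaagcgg
Centromeric edge of the TAD, chr16:92497296-92497375: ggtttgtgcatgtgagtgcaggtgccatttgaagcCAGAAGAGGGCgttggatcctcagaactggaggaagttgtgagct
Telomeric edge of the TAD, chr16:93615897-93615976: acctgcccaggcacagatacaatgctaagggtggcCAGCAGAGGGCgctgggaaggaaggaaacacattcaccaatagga

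The P1-CTCF peak (92828270 to 92828500) had its middle 2073 bp from the start of the P1 transcript. The P2-CTCF peak (92698817 to 92699340) had its middle 1505 bp from the start of the P2 transcript. Both lie upstream of a gene read on the minus strand. The edge peaks were those nearest to the ends of the TAD, with middles 1354 bp and 2063 bp from them. All 4 matches lay on the plus strand. From CTCF peaks in mESCs, the study reported motifs that mostly converge, pointing into the TAD from its ends. A single peak at each end thus does not give the orientation of the sites there. The letters were present, on either strand, in 45.5% of 44513 CTCF peaks, in 2.48% of 316663 windows of the same 300 bases tiled along chromosome 16, and in 9.76% of 799 gene starts on that chromosome. The exact deleted bases were not used here.

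Levels are given as CPM, a gene's count divided by the library total (ribosomal RNA included) and rescaled to 1000000 counts, with TMM factors over all 23 libraries. By marker genes, the libraries fitted their labels. The summed level of Pou5f1, Nanog, Sox2 and Esrrb was 26.4 to 27.7 CPM in undifferentiated mESCs and at most 3.31 CPM later. The mesoderm list (Kdr, Eomes, T, Mesp1, Pdgfra) summed to 24.8 to 74.6 CPM in mesoderm. The progenitor list (Itga2b, Tal1, Gfi1b, Gata1, Runx1) summed to 71.9 to 256 CPM in HPCs and 2.55 to 19.7 CPM in mesoderm. Runx1 was the largest part of it, with a mean of 97.5 CPM in wild-type HPCs and 10.7 CPM in wild-type mesoderm. Library totals ran from 7805102 to 24406998 counts, of which 68.1 to 91% fell on ribosomal RNA or multi-locus entries. The neighbours together received 14974 to 27877 counts in undifferentiated mESCs but only 1025 to 4195 in the later libraries, so low genes were poorly resolved after day 0.

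Of the 76 neighbours, 10 had no count in any library and 13 more had at most 10 counts in total. The count filter let 46 enter at least 1 fit and 27 enter all of them. Distances were taken from the nearer end of the Runx1 TAD, whose ends lay just outside the edge peaks shown above. Of the 76, 7 overlapped the TAD, 17 lay within 0.5 Mb of it, 17 lay at 0.5 to 1 Mb, 20 at 1 to 2 Mb and 15 beyond 2 Mb.

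Per kilobase of the gene span, the neighbours with the highest levels differed between stages. In wild-type HPCs Son, a splicing cofactor of nuclear speckles, led with 0.816 CPM per kb. Sod1, the cytosolic superoxide dismutase, had 0.292 CPM per kb and Hmgn1, a nucleosome-binding protein, 0.241 CPM per kb. Dyrk1a, a kinase gene whose dose matters in Down syndrome, had 0.238 CPM per kb. Gart, which encodes a trifunctional enzyme of purine synthesis, led in undifferentiated mESCs with 0.508 CPM per kb, followed by Son with 0.492, Hmgn1 with 0.428, Sod1 with 0.414 and Morc3, a nuclear ATPase gene, with 0.238. In mesoderm Son was at 0.656, Hmgn1 at 0.396, Sod1 at 0.332 and Ttc3, a ubiquitin ligase gene, at 0.224 CPM per kb. The entry Gm36712, at 0.275 CPM per kb in mesoderm and 0.527 in HPCs, lies wholly inside Son on the same strand, so its counts cannot be told apart from those of Son. At the other end, the neural transcription factor genes Olig1, Olig2 and Sim2 had too few counts to be tested in any fit.

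**Figure D1:**
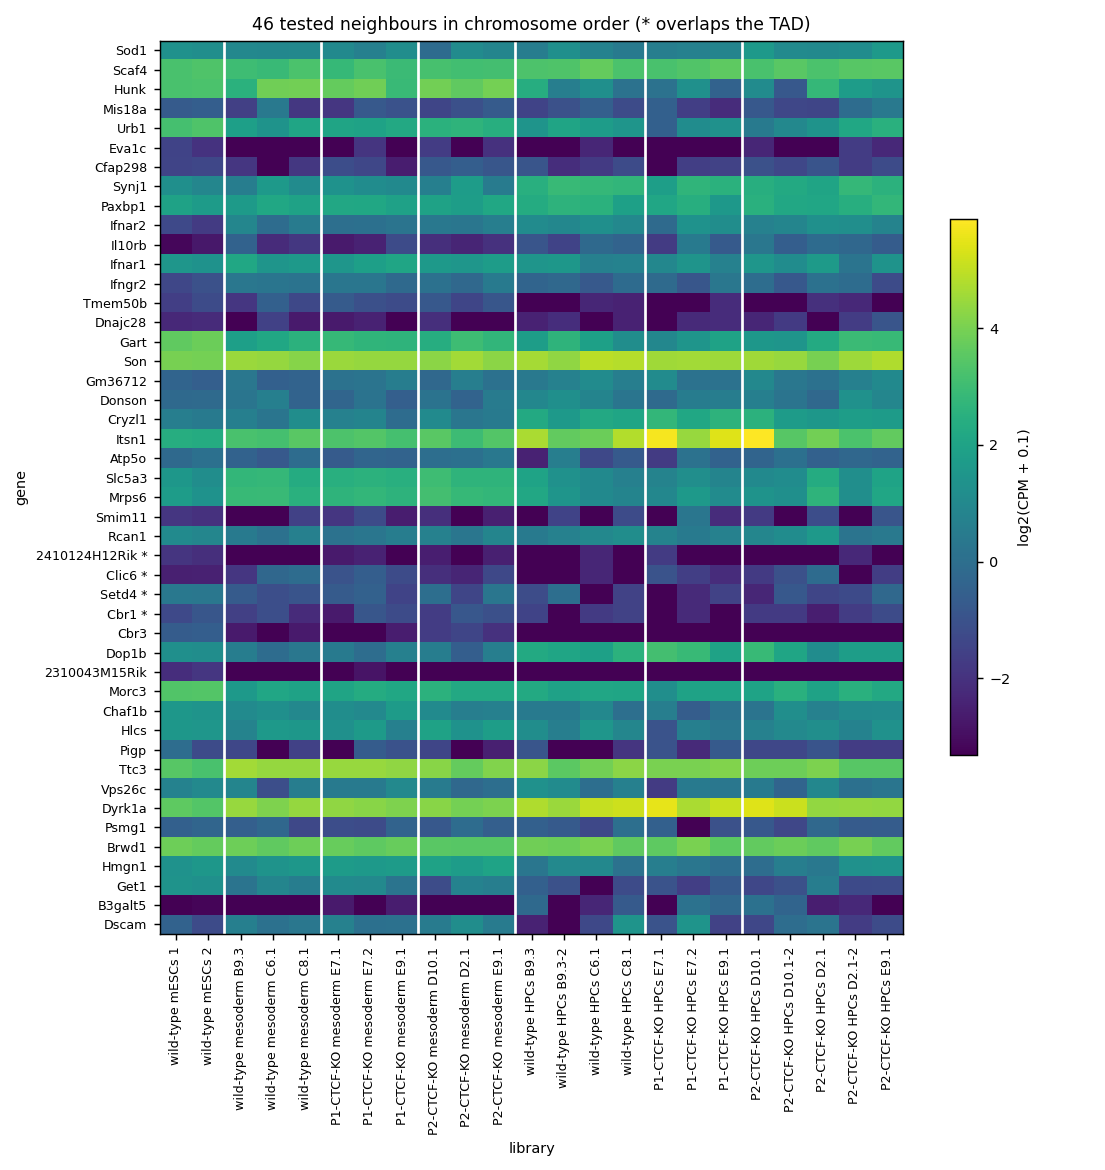
Level of each of the 46 tested neighbours in each of the 23 libraries, drawn as log2(CPM + 0.1) in colour, with genes in chromosomal order and libraries grouped by stage and genotype (white lines). Undifferentiated libraries are darker at Ifnar2 and Il10rb and brighter at Morc3, and the HPC libraries are brighter at Dop1b; Itsn1 varies among the HPC libraries, up to 58 CPM in 1 of P2-CTCF-KO.

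The first question was whether deletion of either CTCF site moved the neighbours. No neighbour was called in any of the 4 comparisons with wild type by edgeR's quasi-likelihood test, at a Benjamini-Hochberg adjusted p under 0.05 and a change over 2-fold. DESeq2 called 0 as well. The differences ranged from -0.92 to 0.99 on the log2 scale over the 4 comparisons.

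In P2-CTCF-KO mesoderm, 31 neighbours were tested and 0 were called, against 0.0342% of all 8778 genes tested (3 genes, none on chromosome 16). That all-gene share depended on the test, since DESeq2 called 26 genes higher and 140 lower and edgeR with no count filter 87 higher and 344 lower, while the neighbours called stayed at 0 with both. The median log2 difference was 0.05 over the neighbours and 0.01 over all genes. At an unadjusted p under 0.05 there were 5 neighbours (16.1%), against 16.0% of all genes. DESeq2 gave 3 at that threshold. The share of neighbours with a low p was thus close to that of the table as a whole.

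Urb1, a ribosome assembly gene, had the smallest p of these. It was at 5.72, 6.19 and 5.26 CPM in P2-CTCF-KO mesoderm and at 3.54, 2.55 and 4.15 CPM in wild type. The groups did not overlap, and the log2 difference was 0.75 ± 0.20 (SE, edgeR adjusted p = 0.15). Hmgn1 was at 3.79, 3.28 and 3.92 CPM against 1.98, 2.55 and 2.77 CPM, again with no overlap (0.63 ± 0.20, edgeR adjusted p = 0.18). Gart differed by 0.53 ± 0.23 (edgeR adjusted p = 0.29) and its libraries overlapped. Morc3 was at 5.86, 4.59 and 4.59 CPM against 3.02, 4.25 and 3.85 CPM (0.48 ± 0.21, edgeR adjusted p = 0.29). Ttc3 was the only one of the 5 with a lower value in P2-CTCF-KO, at 18.7, 12.8 and 17.4 CPM against 24.2, 20.9 and 21.2 CPM (-0.41 ± 0.17, edgeR adjusted p = 0.27). None of the 5 passed the test.

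The interval of the difference lay within 2-fold either way for 20 of the 31. For the other 11, a 2-fold difference was not excluded at this depth. The highest value belonged to Setd4 (0.83, 95% interval -0.32 to 1.97), which overlaps the TAD and had 3 to 15 counts per library here.

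The P2-CTCF-KO mesoderm libraries also differed in markers. The mesoderm list summed to 61.2 to 74.6 CPM there and to 24.8 to 44.5 CPM in wild type, with no overlap. The endothelial markers Cdh5 and Pecam1 summed to 0.207 to 0.469 CPM against 0.728 to 38.2 CPM. Whether these markers were called depended on the tool. With edgeR 0 of the 10 tested markers passed (Cdh5 -5.98, adjusted p = 0.16, and Eomes 2.76, adjusted p = 0.13). With DESeq2, tried on the markers after the data had been seen, 5 passed: Pdgfra, Eomes and T were higher and Cdh5 and Pecam1 lower in P2-CTCF-KO (Eomes 2.67, adjusted p = 0.0018, and Cdh5 -6.04, adjusted p = 0.016). Their part in the values of the neighbours was not tested.

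In P1-CTCF-KO mesoderm, 31 neighbours were tested and 0 were called, as were 0% of all 8778 genes. Gart was the single neighbour with an unadjusted p under 0.05 (3.23%), against 1.91% of all genes, and DESeq2 gave 0. Its 3 knockout libraries were at 7, 6.34 and 6.11 CPM, above the wild-type libraries at 3.54, 4.37 and 5.89 CPM (0.50 ± 0.22, edgeR adjusted p = 1). The next lowest p values belonged to Hmgn1 (0.37), Ifnar2, a chain of the type I interferon receptor (-0.46), Morc3 (0.28) and Gm36712 (0.45), all at an edgeR adjusted p of 1. The median difference was -0.0028 for the neighbours and -0.0052 for all genes on the log2 scale. For 24 of the 31 the interval lay within 2-fold either way.

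In P2-CTCF-KO HPCs, 27 neighbours were tested and 0 were called, beside 0% of all 7422 genes. Sod1 alone had an unadjusted p under 0.05 (3.7% of the neighbours, 1.95% of all genes, 0 neighbours with DESeq2). Its P2-CTCF-KO libraries were at 3, 2.02, 1.95, 2.11 and 2.93 CPM and the wild-type libraries at 1.37, 2.3, 1.58 and 1.25 CPM, so that 1 wild-type library fell among the knockouts (0.59 ± 0.24, edgeR adjusted p = 1). The lowest value was that of Vps26c, a gene of endosomal sorting (-0.52, 95% interval -1.41 to 0.38). Synj1, a phosphoinositide phosphatase gene, differed by -0.27, Chaf1b, a subunit of the chromatin assembly factor, by 0.42 and Ttc3 by -0.24, each at an edgeR adjusted p of 1. The median difference was 0.0015 over the neighbours and 0.03 over all genes, and intervals lay within 2-fold for 18 of 27.

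In P1-CTCF-KO HPCs, 27 neighbours were tested and 0 were called, beside 0% of all 7422 genes. Hlcs, the ligase that attaches biotin to carboxylases, had the only unadjusted p under 0.05 (3.7% of neighbours, 3.50% of all genes, 1 neighbour with DESeq2). It was at 0.405, 1.45 and 1.14 CPM in the knockout libraries and at 2.15, 1.41, 2.76 and 1.75 CPM in wild type (-0.92 ± 0.37, edgeR adjusted p = 0.91). Knockout clone E7.2 fell among the wild-type values. Urb1 (-0.78), Vps26c (-0.88), Cryzl1, a quinone oxidoreductase-like gene (0.50) and Itsn1, an endocytic scaffold gene (0.99), came next, all at an edgeR adjusted p of 0.91. Itsn1 was at 53.1, 21.6 and 42.2 CPM in these P1-CTCF-KO libraries and at 26.1, 12.5, 13.9 and 27.5 CPM in wild type. The summed progenitor markers were at 250, 122 and 223 CPM in the same P1-CTCF-KO libraries and at 156, 115, 124 and 190 CPM in the wild-type ones. Within P1-CTCF-KO and within wild type the order of the libraries was the same for both measures. It was not the same in P2-CTCF-KO HPCs. There D2.1 had the lowest marker sum (71.9 CPM), yet Itsn1 at 14.9 CPM, next after D10.1 at 58 CPM. Runx1 itself was the largest part of the marker sum. The part of the marker levels in the Itsn1 value was not tested.

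The median over the neighbours in P1-CTCF-KO HPCs was -0.22 on the log2 scale, with 20 of 27 below 0. It was -0.007 over all genes and -0.08 over 222 other genes of chromosome 16. The medians of single libraries, as differences from the wild-type mean, were -0.1, -0.0711 and -0.198 in P1-CTCF-KO and 0.0656, -0.0173, 0.0408 and -0.134 in wild type, so that the groups overlapped. This was the comparison with the fewest counts, and intervals lay within 2-fold for 12 of 27.

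**Figure D2:**
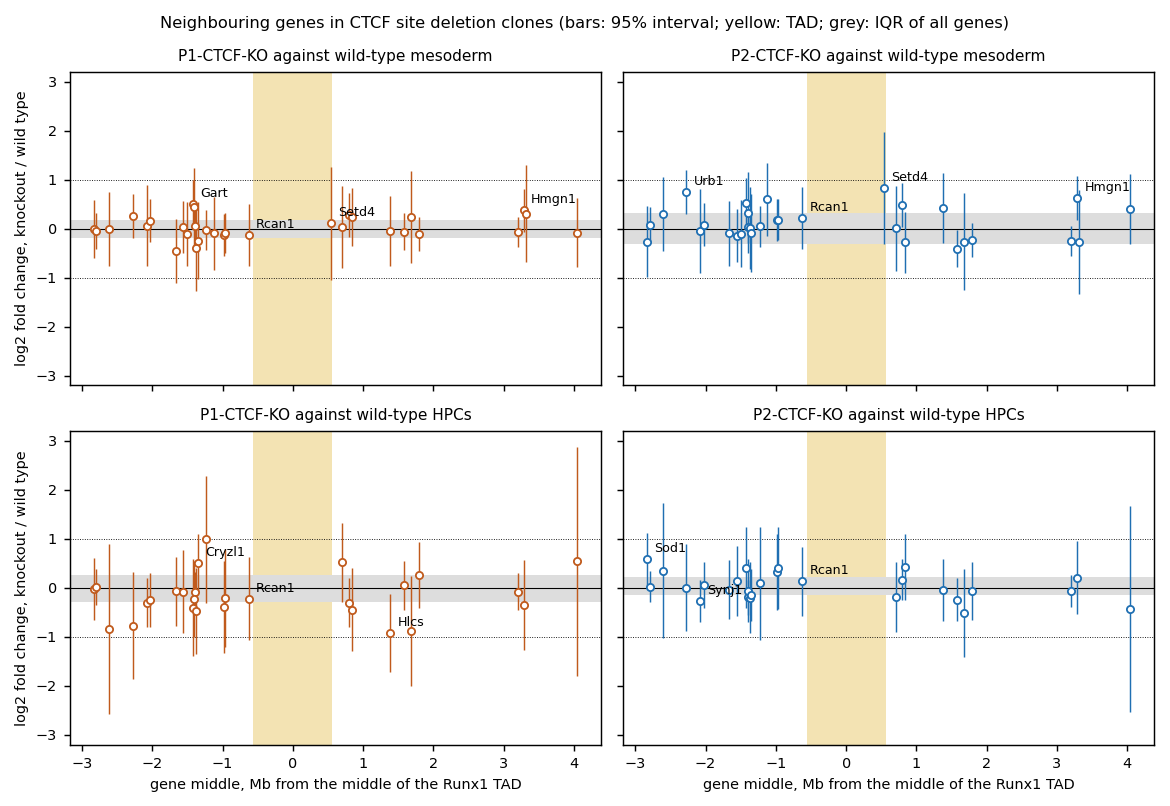
Log2 difference from wild type with its 95% interval for each tested neighbour against its distance from the centre of the Runx1 TAD in Mb, in 4 panels for both knockouts in mesoderm and in HPCs; the yellow band is the TAD, the dotted lines are 2-fold and the grey band is the interquartile range of all genes. All points are open, since 0 were called, and lie between -0.92 and 0.99; the single point inside the TAD is Setd4, at 0.83 in P2-CTCF-KO and 0.11 in P1-CTCF-KO mesoderm.

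Grouped by distance, the tested neighbours showed no class with a called gene. Within 1 Mb of the TAD, P2-CTCF-KO mesoderm had a median log2 difference of 0.11 over 18 tested neighbours, and P1-CTCF-KO mesoderm -0.04. In HPCs the medians within 1 Mb were 0.09 for P2-CTCF-KO and -0.22 for P1-CTCF-KO, over 15 tested neighbours each. The 3 tested telomeric neighbours under 0.5 Mb had medians of 0.0034 and 0.24 in P2- and P1-CTCF-KO mesoderm and of 0.16 and -0.30 in HPCs. The 3 tested centromeric ones had medians of 0.18 and -0.13 in mesoderm and of 0.32 and -0.22 in HPCs.

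Whether a deletion acted differently in HPCs and in mesoderm was tested as an interaction over the 21 differentiated libraries. Of 32 tested neighbours 0 were called for P2-CTCF-KO, against 0.0218% of all 9170 genes, and 0 for P1-CTCF-KO, against 0%. DESeq2 called 0 of them too. Sod1 had the only unadjusted p under 0.05 among the neighbours for P2-CTCF-KO (0.87 ± 0.39, edgeR adjusted p = 0.66). There was none for P1-CTCF-KO.

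The genes that overlap the TAD or lie next to it were looked at singly. Most were too low to enter the fits, so they are given by their counts. Both deleted sites lie nearer to the centromeric end of the TAD than to its telomeric end. Setd4 and Cbr1, at the telomeric end, thus lie further from both sites than Mrps6, a centromeric gene outside the TAD that ends at 92112472. On the centromeric side, Clic6, a gene for a chloride intracellular channel family protein (92498391 to 92541486, plus strand), lies just inside the TAD. The entry 2410124H12Rik (92478986 to 92497615, plus strand) spans its edge. On the telomeric side Setd4, a lysine methyltransferase gene (93583705 to 93604060, minus strand), and Cbr1, a carbonyl reductase gene (93608081 to 93610594, plus strand), lie just inside. The entries 1810053B23Rik and Mir802, in the gene desert, had no count in any library, and 1700029J03Rik had 2, both in 1 P2-CTCF-KO mesoderm library.

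Clic6 had 14 and 8 counts in undifferentiated mESCs. In mesoderm it had 3, 6 and 14 counts in wild type, 7, 14 and 5 in P1-CTCF-KO and 2, 1 and 4 in P2-CTCF-KO. In HPCs it had 0, 0, 1 and 0 counts in wild type, 2, 2 and 1 in P1-CTCF-KO and 2, 4, 12, 0 and 2 in P2-CTCF-KO. Thus 1 count over 4 wild-type HPC libraries stood against 5 over 3 and 20 over 5 knockout libraries. The ratio to wild type was 15.5 for P2-CTCF-KO (95% interval 2.48 to 643) and 9.57 for P1-CTCF-KO (1.07 to 453), and these intervals cover counting error only. Over libraries, the mean was 0.326 CPM in P2-CTCF-KO against 0.0246 CPM in wild type (exact two-sided permutation test, p = 0.079, the smallest possible being 0.016). For P1-CTCF-KO the mean was 0.252 CPM, and the exact permutation p of 0.057 is the smallest that 3 libraries against 4 allow. Both tests count libraries rather than clones, and second libraries of a clone enter as separate units. Fewer independent units than libraries thus stand behind these p-values.

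Clic6 was below the count filter of the HPC fit. With no filter, edgeR gave a log2 difference of 3.28 for P2-CTCF-KO (95% interval 1 to 5.55, unadjusted p = 0.0071, adjusted p = 0.9) and of 2.71 for P1-CTCF-KO (adjusted p = 0.91). In mesoderm the value for P2-CTCF-KO was -1.58 (-3.01 to -0.16, edgeR adjusted p = 0.32). The interaction of P2-CTCF-KO with stage was 4.96 (2.24 to 7.68, edgeR unadjusted p = 8.7e-04, adjusted p = 0.23). None of these passed after adjustment. Of the 20 P2-CTCF-KO HPC counts, 12 came from the first D2.1 library. This library had the highest summed mesoderm markers of all 12 HPC libraries, at 19.5 CPM, and the highest endothelial markers, at 31.3 CPM. Without it, P2-CTCF-KO had 8 counts, a mean of 0.199 CPM and an exact permutation p of 0.14. The p was also 0.14 without any 1 of the 3 other libraries with counts, and it was 0.029, the smallest possible, without the D2.1-2 library, which had none. These tests, too, take second libraries of a clone as separate units, so 0.029 is not a p over clones. The part of mesoderm and endothelial cells in the Clic6 counts was not tested.

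Setd4 had 218 and 118 counts in undifferentiated mESCs. Mesoderm gave 9, 3 and 7 in wild type, 9, 15 and 4 in P1-CTCF-KO and 13, 3 and 15 in P2-CTCF-KO, so the genotypes overlapped. HPCs gave 4, 7, 0 and 3 in wild type, 0, 1 and 2 in P1-CTCF-KO and 1, 5, 4, 3 and 7 in P2-CTCF-KO. Over libraries, P1-CTCF-KO HPCs had 0.122 CPM against 0.372 CPM in wild type (exact permutation p = 0.46), with a ratio of wild type to knockout of 2.44 by counts (95% interval 0.68 to 13.2).

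Cbr1 had 57 and 46 counts at day 0. It had 4, 3 and 2 in wild-type mesoderm, 1, 11 and 5 in P1-CTCF-KO and 3, 5 and 5 in P2-CTCF-KO. In HPCs it had 3, 0, 2 and 3 in wild type, 0, 1 and 0 in P1-CTCF-KO and 2, 2, 1, 2 and 3 in P2-CTCF-KO. The largest gap in HPCs, wild type over P1-CTCF-KO, was a ratio of 4.18 with a 95% interval of 0.56 to 185 (exact permutation p = 0.23).

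Cbr3, the second carbonyl reductase gene, lies 65.5 kb beyond the telomeric end (93683463 to 93691236, plus strand). It had 98 and 58 counts in undifferentiated mESCs and 0 in all 12 HPC libraries. In mesoderm it had 1, 0 and 1 counts in wild type, 0, 0 and 1 in P1-CTCF-KO and 3, 3 and 2 in P2-CTCF-KO. The P2-CTCF-KO libraries all lay above the wild-type ones (0.212 against 0.0394 CPM, exact permutation p = 0.1, the smallest that 3 against 3 allow). The count ratio was 4.35 with a 95% interval of 0.869 to 42.1.

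The better covered neighbours of the TAD had no called difference, and of these Morc3 alone had libraries apart, in P2-CTCF-KO mesoderm. Rcan1, an inhibitor of calcineurin, ends 29.6 kb from the centromeric side. It was at 1.28, 0.971 and 1.5 CPM in wild-type mesoderm, 0.992, 1.11 and 1.38 in P1-CTCF-KO and 1.52, 1.13 and 1.7 in P2-CTCF-KO. Its log2 difference was 0.22 (95% interval -0.42 to 0.86) for P2-CTCF-KO mesoderm and 0.13 (-0.57 to 0.83) for P2-CTCF-KO HPCs, and -0.14 (-0.77 to 0.50) and -0.22 (-1.07 to 0.63) for P1-CTCF-KO. Dop1b, a gene of endosome traffic 94.2 kb from the telomeric side, differed by 0.0034 (-0.86 to 0.87) in P2-CTCF-KO mesoderm and by -0.18 (-0.90 to 0.53) in P2-CTCF-KO HPCs. In P1-CTCF-KO it differed by 0.04 and by 0.52 (-0.29 to 1.33) in mesoderm and HPCs. Morc3, 214 kb away, and Chaf1b, 266 kb away, stayed between -0.44 and 0.48 in the 4 comparisons. For each of these 4 genes every edgeR adjusted p against wild type was at least 0.29. The other nearest centromeric entries, Gm29805, Kcne1, Smim34 and Fam243, had 1, 4, 0 and 0 counts in all, and 2310043M15Rik, inside Dop1b on the other strand, had 43, of which 42 were at day 0.

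**Figure D3:**
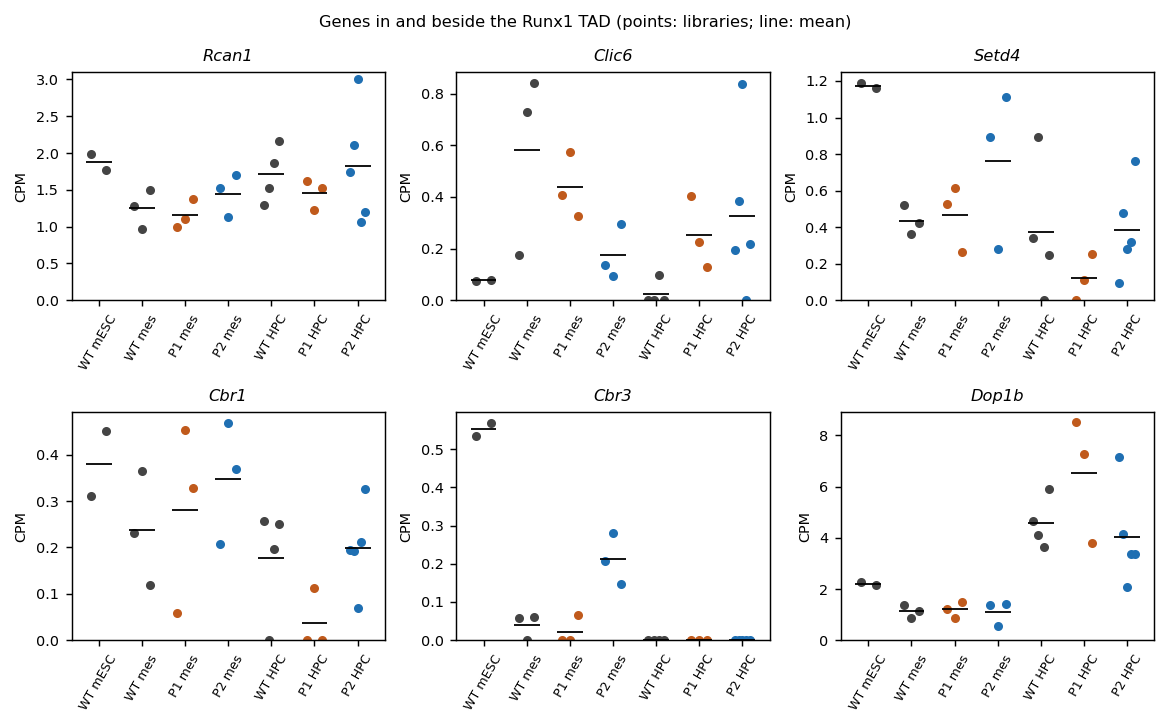
CPM of 6 genes at the TAD ends (Rcan1, Clic6, Setd4, Cbr1, Cbr3 and Dop1b), with 1 point per library for each stage and genotype (WT, wild type, grey; P1, P1-CTCF-KO, orange; P2, P2-CTCF-KO, blue); horizontal lines are group means. Within a stage the genotypes overlap for Rcan1, Dop1b, Setd4 and Cbr1, Clic6 is at or near 0 in wild-type HPCs (mean 0.0246 CPM), and Cbr3 in P2-CTCF-KO mesoderm (mean 0.212 CPM) lies above the other mesoderm libraries.

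The second question was how the neighbours moved over differentiation, the background on which a deletion would act. From undifferentiated mESCs to wild-type mesoderm, 13 of 46 tested neighbours passed the test (28.3%), against 24.4% of all 12899 genes. There were 7 higher and 6 lower, against 10.7% of all genes higher and 13.7% lower. The 6 lower include Cbr3, Eva1c and 2410124H12Rik, which entered the fit only through their mESC counts. The 7 higher include Il10rb, which entered it only through mesoderm and HPC counts. The median log2 difference was -0.26 for the neighbours and -0.18 for all genes. The day 0 libraries are technical repeats, so this step had no biological replicates at day 0 and its p-values take no account of the spread between cultures there. Without the first repeat 3 calls were left (Ifnar2, Morc3 and Urb1), and without the second 4 (the same genes and Il10rb). The other calls below needed both repeats. Among the cells analysed here, the study's methods name ribosomal RNA depletion for the undifferentiated mESCs only, and ribosomal or multi-locus entries took 68.1 to 76.3% of counts there and 87.8 to 91% later, so stage and preparation cannot be told apart here.

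The receptor genes of the interferon and interleukin-10 families sit together centromeric of Runx1. With both day 0 repeats in the fit 3 of these 4 rose, against 10.7% of all genes. The list of these genes was chosen with earlier results of these data known. Ifnar2 kept its call without either repeat, Ifngr2 lost it without either, and Il10rb lost it without the first repeat or without mesoderm clone B9.3. Il10rb passed the count filter only through mesoderm and HPC libraries, so only a rise from mESCs could be called for it. Ifnar2 was at 0.306 and 0.206 CPM in mESCs and at 1.74, 0.85 and 1.32 CPM in mesoderm (2.36 ± 0.36, edgeR adjusted p = 9.7e-04). Il10rb, the shared chain of the interleukin-10 family receptors, rose from 0.0109 and 0.049 CPM to 0.639, 0.121 and 0.18 CPM (3.59 ± 0.82, edgeR adjusted p = 0.0082). Ifngr2, a chain of the interferon gamma receptor, rose from 0.289 and 0.382 CPM to 1.16, 1.09 and 1.02 CPM (1.70 ± 0.36, edgeR adjusted p = 0.0052). For each of them all mesoderm libraries lay above both mESC libraries. Ifnar1, the other type I receptor chain, was at 2.72 and 2.45 CPM and then at 4.36, 2.67 and 3.01 CPM (0.38 ± 0.32, edgeR adjusted p = 0.4), so that the groups overlapped. In no genotype comparison was any of the 4 called, and Il10rb was below the count filter of those fits.

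Slc5a3, the myo-inositol transporter gene (1.29 ± 0.35, edgeR adjusted p = 0.019), and Mrps6, a mitochondrial ribosomal protein gene (1.20 ± 0.36, edgeR adjusted p = 0.028), rose by like amounts. Slc5a3 lies wholly inside Mrps6 on the same strand, with 1889 and 2145 counts in all, so this is 1 signal rather than a pair. Ttc3 went from 10.9 and 9.29 CPM to 24.2, 20.9 and 21.2 CPM (1.12 ± 0.26, edgeR adjusted p = 0.0082). Clic6 went from 0.0764 and 0.0784 CPM to 0.174, 0.728 and 0.842 CPM (2.80 ± 0.63, edgeR adjusted p = 0.0078).

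Among the genes that fell, Morc3 went from 10.3 and 10.6 CPM to 3.02, 4.25 and 3.85 CPM (-1.51 ± 0.22, edgeR adjusted p = 7.3e-04). Gart went from 12.3 and 13.7 CPM to 3.54, 4.37 and 5.89 CPM (-1.50 ± 0.34, edgeR adjusted p = 0.0081), and Urb1 from 8.69 and 9.95 CPM to 3.54, 2.55 and 4.15 CPM (-1.43 ± 0.26, edgeR adjusted p = 0.0024). Cbr3 had only 2 counts in mesoderm, and its level in mESCs was 11.5 times that in mesoderm by counts (95% interval 3.14 to 96, edgeR adjusted p = 0.0071). Eva1c, a membrane protein gene, and 2410124H12Rik were also called lower. Eva1c had 47 and 16 counts in mESCs and 2410124H12Rik had 31 and 14, and both had none in wild-type mesoderm. Their mean mESC levels lay below what 3 counts in a mesoderm library would give, so no fold is given (edgeR adjusted p = 0.023 for Eva1c and 0.033 for 2410124H12Rik). Cbr3 and both of these entries passed the count filter only through the mESC libraries, so only a fall could be called for them.

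From wild-type mesoderm to HPCs, the stage at which Runx1 is known to act in emerging blood, 10 of 46 neighbours passed the test (21.7%), against 23.3% of all 12899 genes. There were 5 higher (10.8% of all genes) and 5 lower (12.5% of all genes). The 5 higher include B3galt5, which entered the fit only through its HPC counts. The median log2 difference was -0.0067 for the neighbours and -0.0078 for all genes. With the clone as a replicate block, where the lower counts let 27 neighbours into the fit, 6 of the 10 were called. These were Synj1, Dop1b, Cryzl1, Hunk, Slc5a3 and Mrps6. Itsn1 lost its call (edgeR adjusted p = 0.075 with the replicate block), and the other 3 did not enter that fit.

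Of the 5 tested genes of signalling and membrane traffic, 3 rose, against 10.8% of all genes at this step. Their list was chosen with earlier results of these data known. Dop1b, next to the telomeric end of the TAD, went from 1.39, 0.85 and 1.14 CPM in mesoderm to 4.64, 4.09, 3.65 and 5.92 CPM in HPCs (1.98 ± 0.27, edgeR adjusted p = 3.2e-04). Synj1 went from 1.39, 3.04 and 2.04 CPM to 5.41, 7.16, 6.9 and 6.58 CPM (1.64 ± 0.28, edgeR adjusted p = 0.0012). Itsn1 went from 9.18, 8.74 and 11.4 CPM to 26.1, 12.5, 13.9 and 27.5 CPM (1.04 ± 0.29, edgeR adjusted p = 0.02). Its level differed by more than 2-fold between wild-type HPC libraries, and its call was lost in 8 of the alternatives. Rcan1 (0.43 ± 0.29) and Vps26c, the other tested members, did not pass.

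Cryzl1 went from 1.45, 1.09 and 2.16 CPM to 4.64, 2.94, 4.54 and 4.17 CPM (1.34 ± 0.28, edgeR adjusted p = 0.0045). The entry Gm10785 covers most of it on the other strand with 73 counts against 1085. B3galt5, a glycosyltransferase gene, had no count in wild-type mesoderm and 9, 0, 1 and 6 counts in HPCs. Its mean of 0.343 CPM was at least 1.43-fold higher than 3 counts per mesoderm library would give (edgeR adjusted p = 0.041), and the libraries overlapped at 0. B3galt5 passed the count filter only through HPC libraries, so only a rise could be called for it.

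Hunk, a protein kinase gene, fell the furthest among well covered genes. It was at 5.75, 14.6 and 15 CPM in mesoderm and at 5.15, 1.41, 2.27 and 1 CPM in HPCs (-2.23 ± 0.48, edgeR adjusted p = 0.0049). The highest HPC library lay just below the lowest mesoderm library, both from clone B9.3. The joint signal of Slc5a3 and Mrps6 fell back (Slc5a3 -1.31 ± 0.31, edgeR adjusted p = 0.0083; Mrps6 -1.30 ± 0.32, edgeR adjusted p = 0.0098). Get1, a gene for insertion of tail-anchored proteins, fell from 1.05, 1.7 and 1.38 CPM to 0.601, 0.384, 0 and 0.333 CPM (-1.99 ± 0.53, edgeR adjusted p = 0.015). Clic6 fell from 23 counts in 3 mesoderm libraries to 1 in 4 HPC libraries, and its mesoderm level was 22.7 times higher by counts (95% interval 3.69 to 936, edgeR adjusted p = 0.0094). The type I interferon receptor genes did not pass at this step (Ifnar2 0.56 ± 0.31, edgeR adjusted p = 0.21, and Ifnar1 -0.68 ± 0.30, edgeR adjusted p = 0.11).

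**Figure D4:**
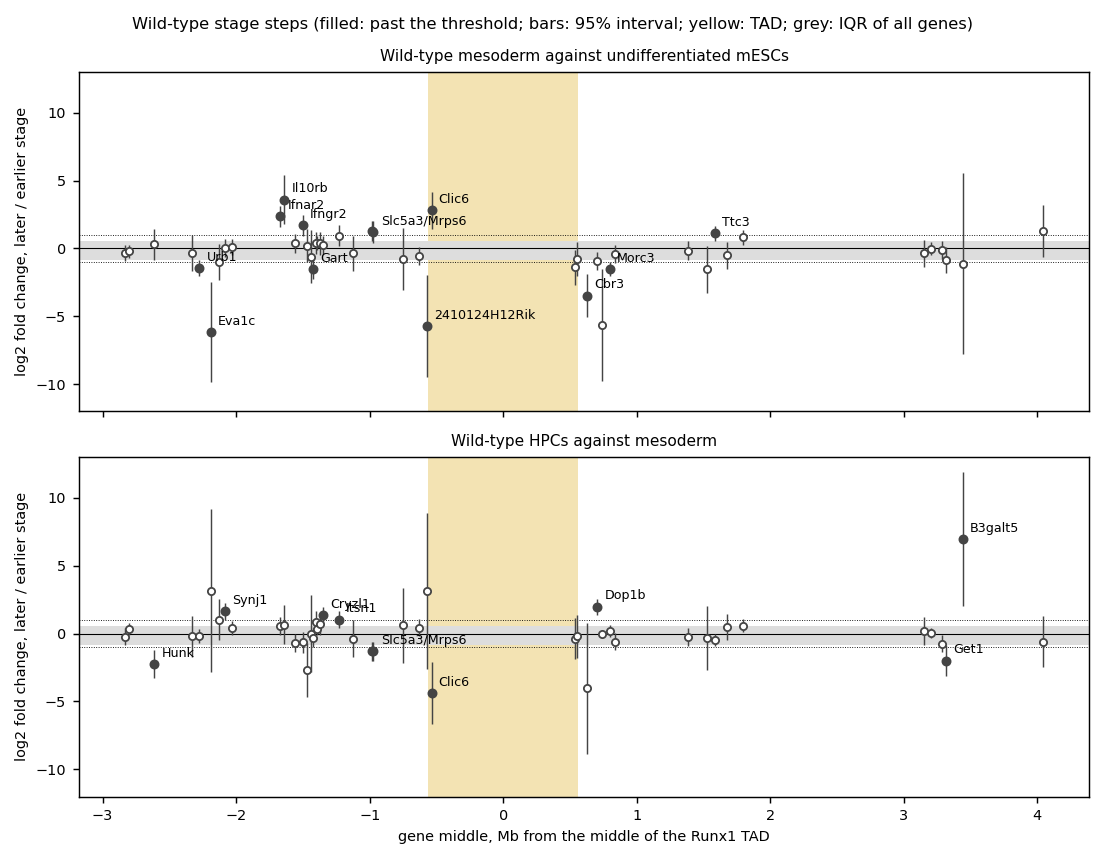
Log2 difference with its 95% interval between stages for each tested neighbour in wild-type cells, against distance from the centre of the TAD in Mb, for mesoderm against undifferentiated mESCs and for HPCs against mesoderm; the yellow band is the TAD, the grey band the interquartile range of all genes, and filled points passed the test. The 13 and 10 calls fall on both sides of the TAD, and the widest intervals belong to genes with few or no counts in 1 of the stages.

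The step from mesoderm to HPCs was also fitted within each knockout, in a fit over the 21 differentiated libraries. In P1-CTCF-KO, 14 of 32 tested neighbours passed (43.8%), against 32.6% of all 9170 genes. There were 5 higher, against 16.6% of all genes, and 9 lower, against 16.1%. Leaving out P1-CTCF-KO mesoderm clone E7.1 left 9. In P2-CTCF-KO, 8 of 32 passed (25%), against 28.2% of all genes, with 4 higher (16.5% of all genes) and 4 lower (11.7% of all genes). The higher calls of both knockouts include Il10rb, which entered the fit only through HPC libraries. The interaction test above called no neighbour, so the unequal numbers of calls are not shown to differ.

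In all 3 genotypes 6 neighbours passed, Dop1b, Synj1 and Cryzl1 upward and Hunk and the joint signal of Slc5a3 and Mrps6 downward. The wild-type calls come from the separate fit of the wild-type libraries, with its own count filter and estimate of the spread. With the replicate block Mrps6 missed the threshold in P2-CTCF-KO (-1.21, edgeR adjusted p = 0.065). Dop1b rose by 1.98 ± 0.27 in wild type, 2.43 ± 0.41 in P1-CTCF-KO and 1.78 ± 0.39 in P2-CTCF-KO clones. Hunk fell by 2.23 in wild type, and the value was -3.08 ± 0.71 in P1-CTCF-KO and -2.20 ± 0.54 in P2-CTCF-KO. Hmgn1 passed in both knockouts (-1.49 ± 0.36 and -1.16 ± 0.29), and so did Il10rb (2.15 ± 0.71 and 2.48 ± 0.68). Their interactions with genotype did not pass (Il10rb 1.84, edgeR adjusted p = 0.74 for P2-CTCF-KO). Il10rb passed the count filter of this fit only through HPC libraries, so only a rise could be called for it. Chaf1b, Gart, Hlcs and Urb1 passed in P1-CTCF-KO alone, each downward, between -1.33 and -1.15. None passed in P2-CTCF-KO alone. B3galt5 and Clic6 were called in wild type and were not tested in the fit of the knockouts, where too few libraries held enough counts.

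**Figure D5:**
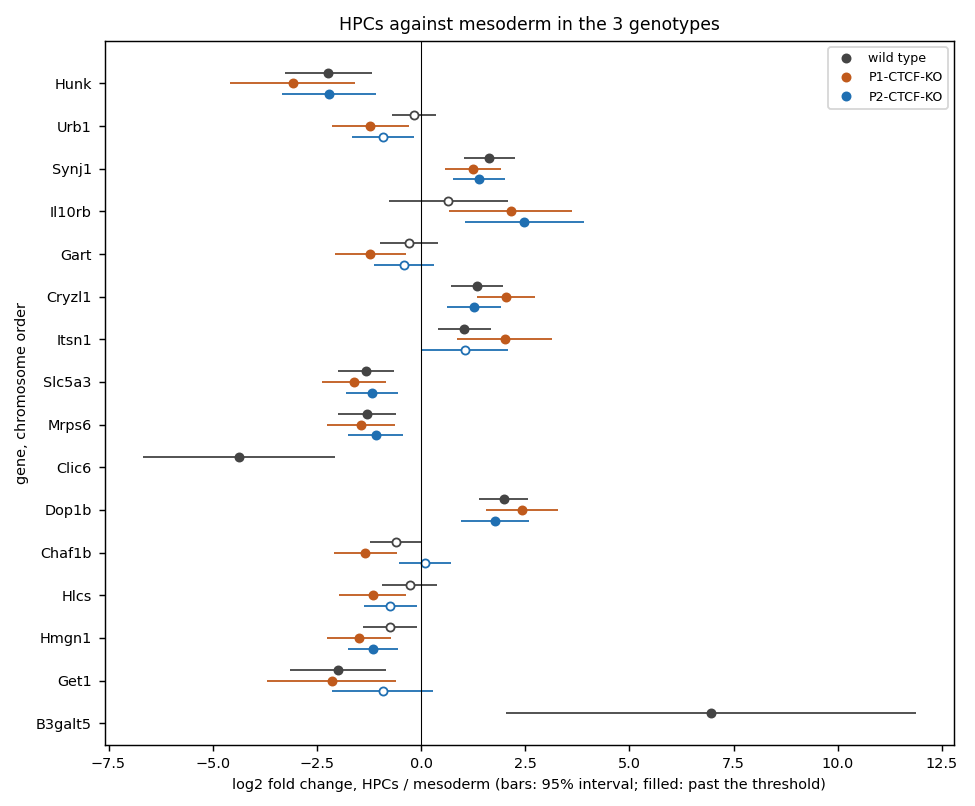
Log2 difference between HPCs and mesoderm with its 95% interval for each of the 16 neighbours that passed in at least 1 genotype, drawn in turn for wild type (grey) and for the P1-CTCF-KO (orange) and P2-CTCF-KO (blue) clones; filled points passed the test. The 6 genes that passed in all 3 genotypes lie on the same side of 0 in each, with intervals that overlap; Clic6 and B3galt5 have a wild-type value only.

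What the neighbours share beside position was examined at their starts. ATAC-seq, which marks open chromatin, was made by the study in a reporter line of the same mESCs. A peak of the merged mesoderm list lay within 1 kb of the start of 51 of 76 neighbours (67.1%, 95% Wilson interval 55.9 to 76.6%), against 55.1% of 25011 genes. For the merged HPC list it was 39 of 76 (51.3%, 40.3 to 62.2%), against 37% of all genes. A 416B CTCF peak lay within 1 kb of 9 starts (11.8%, 6.36 to 21%), against 12.8% of all genes. Of 53 neighbours with more than 10 counts, 45 had a mesoderm peak and 38 an HPC peak. Of the other 23, 6 and 1 did. Some starts lie close together, such as those of Slc5a3 and Mrps6 or of Gart and Son, and can share a peak. The intervals take each start as independent, so they may be too narrow. Each list was called on merged reads, so these shares have no replicate check.

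Both ATAC-seq lists covered 38 of the starts, and 24 had neither. Of the 13 with a mesoderm peak only, several belonged to genes described above, Clic6, Cbr3, Il10rb, Ifngr2 and the neural genes Olig1, Olig2 and Dscam. Mrap, a gene for a partner of the melanocortin 2 receptor, was the single one with an HPC peak only. It had no count in any undifferentiated or mesoderm library and 29 counts over the HPC libraries. At Clic6 the nearest mesoderm peak was 0.402 kb from the start, the nearest HPC peak 8.51 kb and the nearest 416B CTCF peak 0.957 kb. At Setd4 the start itself had a mesoderm peak, with the nearest HPC peak at 0.022 kb and the nearest CTCF peak at 11.7 kb. At Dop1b the start lay in an HPC peak, 0.006 kb from a mesoderm peak and 0.746 kb from a CTCF peak.

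The mesoderm list held 76766 peaks and the HPC list 29037, so a start with a peak in the mesoderm list alone does not show a loss of open chromatin. Over the TAD as a whole there were 45 mesoderm ATAC-seq peaks, 14 HPC peaks and 30 CTCF peaks. Per Mb this was 40.1, 12.5 and 26.7, beside 44.3, 17.2 and 30.9 over the whole window. Of the CTCF peaks whose sequences are given above, P1-CTCF overlapped 1 ATAC-seq peak in each list. P2-CTCF and the telomeric edge overlapped 1 in the mesoderm list and none in the HPC list, and the centromeric edge none in either.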

How the data were processed

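The values analysed were raw read counts per gene in 23 poly(A)-minus libraries, as deposited by the authors, over exons and introns on mm9 and made per the labels and the study's methods with STAR and featureCounts after removal of duplicates. Whether counting used strand is not given in the sources used here. The deposited peak lists, in BED format, were called by the authors with MACS2 on merged reads. Entries with several loci or a very long span and ribosomal RNA (186) stayed in library sizes. Tests used edgeR 4.0.16 in R 4.3.3 (TMM, filterByExpr with a minimum count of 10, quasi-likelihood test, Benjamini-Hochberg adjustment over all genes tested), with 1 fit for each stage, for the wild-type libraries and for the 21 differentiated libraries. A call needed an adjusted p under 0.05 and an absolute log2 change over 1. SE is the log2 change divided by the root of F. Single low genes were compared by exact two-sided permutation tests of CPM over libraries, with second libraries of a clone as separate units. Shares carry 95% Wilson intervals, and count ratios exact binomial ones, for counting error only. The scripts were tested on simulated data.

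Named genes were those at the TAD, the 5 nearest to each end, the called genes or, where fewer than 5 were called, the 5 lowest p values between genotypes, up to 5 in each direction per wild-type step, the 5 highest per kb and lists by role. Members and lists were chosen with earlier results of these data known. Since both stages of a clone share its origin, the clone was tried as a replicate block. Deviations of mesoderm and HPC libraries from their group means correlated at -0.0691 to 0.188 over 9 clones, and 5 of 9 clones correlated best with their own. Alternatives were DESeq2 1.42.0, other size factors, no filter, no fold limit, no ribosomal entries, summed libraries of a clone, all libraries in 1 fit, a narrower window and each library left out. After the data had been seen, the exact test of Clic6 in HPCs was repeated without each P2-CTCF-KO library, and the markers were tested with DESeq2.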

Additional observations from a re-analysis of the deposited data

Results flagged for a closer look

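In 54 groups of 4 or 5 HPC libraries (27 tested neighbours in wild type and P2-CTCF-KO), 4 held a library far from the others by Dixon's criterion, where chance gives about 1 in 20 groups. Itsn1 was at 58 CPM (599 counts) in the first P2-CTCF-KO HPC library of clone D10.1, with the next library at 14.9 CPM. Cryzl1, which lies beside Itsn1, was also highest in that library, at 5.81 CPM against 3.38 CPM in the next. The same library had the highest summed progenitor markers, at 256 CPM, and cardiac markers, at 7.17 CPM, among the HPC libraries. The HPC libraries with the next highest progenitor markers, P1-CTCF-KO E7.1 (250 CPM) and E9.1 (223 CPM), had Itsn1 at 53.1 and 42.2 CPM. The P2-CTCF-KO library with Itsn1 at 14.9 CPM, D2.1, had the lowest progenitor markers of the HPC libraries, at 71.9 CPM. The part of the marker levels in the Itsn1 and Cryzl1 values was not tested. Dscam, a neuronal adhesion gene, was at 2.58 CPM (31 counts) in wild-type HPC clone C8.1, with the next library at 0.296 CPM. Scaf4, a splicing-related gene, was at 12.9 CPM in wild-type HPC clone C6.1, with the next at 9.85 CPM.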

How the results depend on the processing

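The count of called neighbours was 0 in each genotype comparison and interaction under every alternative run, with 0 to 0 when single libraries were left out. Over single libraries left out, the calls ranged from 3 to 14 for wild-type mesoderm against mESCs (3 without E14_techRep1 and 4 without E14_techRep2), from 7 to 10 for wild-type HPCs against mesoderm (lowest without mesoderm clone C6.1), from 9 to 15 in P1-CTCF-KO (lowest without mesoderm clone E7.1) and from 6 to 9 in P2-CTCF-KO (lowest without the first HPC library of D10.1). For these ranges no share of all genes is given. With the clone as a replicate block the wild-type count fell from 10 to 6 (27 tested), and over all genes from 3007 to 1817 (7343 tested). It was 13 of 29 tested in P1-CTCF-KO, where all genes went from 2994 to 2836 (7973 tested). In P2-CTCF-KO it was 7 of 30, where all genes went from 2588 to 1698 (7993 tested). With no filter the P2-CTCF-KO step had 14 calls among 65 tested neighbours, where the main fit had 8 among 32. Over all 18578 genes tested with no filter, 1519 were called higher and 1615 lower. Of 45 calls of single neighbours, all 909 alternative values kept their direction and 63 missed the threshold, the cause of which was not tested. Alternatives in which a called neighbour did not enter the fit are in neither number. The median of the neighbours in P1-CTCF-KO HPCs, -0.22, moved to -0.12 with all 23 libraries in 1 fit. Over all genes, P2-CTCF-KO mesoderm had 3 calls with edgeR, all lower, 26 higher and 140 lower with DESeq2, 87 higher and 344 lower with no filter, and 3 higher and 15 lower with all libraries in 1 fit. For wild-type mesoderm against mESCs the split of 1386 higher and 1761 lower became 1453 and 1216 with DESeq2, and the median of all genes moved from -0.18 to -0.12 (-0.35 with no filter). Starts with a CTCF peak were 34.2% within 5 kb (32.1% of all genes) and 5.26% at the start itself (3.92% of all genes). For the HPC list it was 23.7% at the start and 39.5% with wide peaks, and for the mesoderm list 78.9% within 5 kb and 36.8% at the start. Depth limited the genes in the TAD, which had under 20 counts per differentiated library.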
